A study of Homo sapiens with 6 samples.

Results

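The genes of cholesterol and fatty acid synthesis were followed in SW480, a cell line from a human colorectal adenocarcinoma. The list held 36 genes, chosen for their place in the pathway and with earlier results of these data known. They were 4 regulators of the SREBP transcription factors, 19 genes of the sterol branch and 13 of the fatty acid branch. A gene was measured where the array (Affymetrix HG-U133 Plus 2.0) has a probe set annotated to that symbol alone, and its brightest such probe set over the 6 arrays stood for it. This gave 31 of the 36 genes among 19775 genes in all, with 4 regulators, 17 sterol genes and 10 fatty acid genes. CYP51A1, ELOVL1 and FADS1 had probe sets annotated to several genes, and these were not used. FDFT1 and ACSL3 were not analysed here.

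One group held SW480 cells transfected with CPEB3 and labelled as overexpressing it, and it was set against SW480 cells transfected with a negative control (NC), with 3 biological replicates each. CPEB3 is an RNA-binding protein that acts on the translation of mRNAs carrying cytoplasmic polyadenylation elements. Both groups grew in the same medium with 10% fetal calf serum, which itself supplies cholesterol and fatty acids. The construct, the time after transfection, the number of clones and the cultures behind the replicates are not stated in the labels, so p-values cover only the spread among these 6 samples, which may be technical.

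Animal cells make cholesterol from acetyl-CoA through mevalonate, squalene and lanosterol, and fatty acids from the same precursor through malonyl-CoA. SREBP2, encoded by SREBF2, mainly drives the sterol genes, and SREBP1, encoded by SREBF1, mainly the fatty acid genes. Both reside in the endoplasmic reticulum with the escort protein SCAP until sterols run low, and INSIG proteins hold the complex there while sterols are plentiful. Colorectal cancer cells are known for active fatty acid synthesis, with high levels of fatty acid synthase.

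SREBP proteins bind promoters together with NF-Y, which reads CCAAT boxes, and SP1, which reads GC boxes. RefSeq start regions (GRCh38.p14, 250 bases before to 50 after a start site) matched 32 of the 36 listed genes. CCAAT, on either strand, lay in the windows of 25 of these 32 genes (78.1%), against 39.7% of 27305 genes in the same table. GGGCGG lay in 30 of 32 (93.8%, against 48.3%), CACGTG in 5 of 32 (15.6%, against 8.77%) and the sterol regulatory element written as TCACNCCAC in 1 of 32 (3.12%, against 1.39%). A gene with several start sites counted once if any of its windows held the letters, and each motif was searched on both strands by itself, whether or not it overlapped another. Such matches describe the letters and not binding, which was not measured. The 27305 genes were taken whatever their level on the arrays, and genes as bright as the members were not counted apart.

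The stretches below are the 250 bases before the start site, 5′ to 3′ on the gene's strand, with CCAAT boxes on either strand (CCAAT or ATTGG) and TCACNCCAC in capitals. They were chosen to show the window that holds the sterol regulatory element (SREBF2), genes of the sterol branch that were lower (HMGCS1, STARD4) or most raised (TM7SF2), and fatty acid genes that were higher with CCAAT boxes (SCD) or without (ELOVL6).
SREBF2, chr22:41832855-41833104, plus strand: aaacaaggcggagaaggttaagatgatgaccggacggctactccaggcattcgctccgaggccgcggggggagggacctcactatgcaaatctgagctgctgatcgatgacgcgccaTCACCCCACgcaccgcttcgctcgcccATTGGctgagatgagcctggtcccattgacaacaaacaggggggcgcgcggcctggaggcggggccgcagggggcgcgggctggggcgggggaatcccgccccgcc
HMGCS1, chr5:43313413-43313662, minus strand: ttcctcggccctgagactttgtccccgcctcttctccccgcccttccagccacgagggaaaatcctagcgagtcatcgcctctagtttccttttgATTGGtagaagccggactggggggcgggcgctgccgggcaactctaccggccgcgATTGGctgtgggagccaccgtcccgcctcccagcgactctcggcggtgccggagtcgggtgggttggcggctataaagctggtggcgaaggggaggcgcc
STARD4, chr5:111512536-111512785, minus strand: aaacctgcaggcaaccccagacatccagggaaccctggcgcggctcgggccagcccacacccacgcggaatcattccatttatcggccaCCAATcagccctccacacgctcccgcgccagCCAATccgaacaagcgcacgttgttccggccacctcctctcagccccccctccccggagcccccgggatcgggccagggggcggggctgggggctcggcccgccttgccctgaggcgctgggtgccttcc
TM7SF2, chr11:65111622-65111871, plus strand: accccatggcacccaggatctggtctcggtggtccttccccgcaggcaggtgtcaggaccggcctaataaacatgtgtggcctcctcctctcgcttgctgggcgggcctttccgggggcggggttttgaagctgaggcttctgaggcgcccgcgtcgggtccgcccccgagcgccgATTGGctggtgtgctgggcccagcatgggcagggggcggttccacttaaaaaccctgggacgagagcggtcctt
SCD, chr10:100346983-100347232, plus strand: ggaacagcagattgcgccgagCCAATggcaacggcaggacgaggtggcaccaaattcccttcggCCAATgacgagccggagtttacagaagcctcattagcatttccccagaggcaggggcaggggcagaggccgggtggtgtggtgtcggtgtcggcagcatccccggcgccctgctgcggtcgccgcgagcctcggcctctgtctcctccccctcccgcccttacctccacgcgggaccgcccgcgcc
ELOVL6, chr4:110198616-110198865, minus strand: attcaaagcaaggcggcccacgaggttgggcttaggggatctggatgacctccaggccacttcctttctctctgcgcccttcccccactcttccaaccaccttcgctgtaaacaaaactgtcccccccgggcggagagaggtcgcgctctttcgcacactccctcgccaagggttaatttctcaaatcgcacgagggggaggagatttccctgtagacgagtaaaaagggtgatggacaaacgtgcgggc
In SREBF2 the element begins 133 bases before the start site and an inverted CCAAT box 106 bases before it. HMGCS1 and STARD4 have 2 boxes each, SCD has 2 and TM7SF2 has 1. In the start regions counted above, CCAAT lay in 11 of 12 members called higher (91.7%) and 3 of 4 called lower (75.0%). It lay in 9 of 12 members not past the threshold (75.0%), and a link to the changes was not tested.

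CPEB3 itself was read by 4 probe sets, and these went against the labels or did not pass. The brightest averaged a log2 intensity of 5.37 ± 0.03 in CPEB3-labelled arrays and 5.32 ± 0.07 in NC-labelled arrays (SD over 3 arrays of each group; limma adjusted p = 0.616). The most variable had 2.31 ± 0.21 against 3.75 ± 0.21, so it was lower under the overexpression label. The remaining probe sets differed by -0.35 and -0.25 (limma adjusted p = 0.00686 and 0.0387). With spike-in centring, described next, the brightest was 0.23 higher (limma adjusted p = 0.0432), beside a median of 0.20 for all genes. Whether these probe sets can read the construct was not analysed here, so every direction below rests on the labels. The hybridization spike-ins, RNAs added at hybridization, averaged 9.57 in the CPEB3-labelled arrays and 9.75 in the NC-labelled arrays on the log2 scale. Centring each array on them makes the median difference of all genes 0.20 in place of 0.02, so members are also given with that shift. Of the colon epithelial markers, EPCAM averaged 11.13 against 11.09 and KRT18 11.62 against 11.36, while CDX2, VIL1 and GPA33 lay lower in both groups (4.85, 4.52 and 4.16 against 4.83, 4.49 and 4.07), though above the array medians of 3.89 to 3.93. KRT20, a marker of differentiated colon cells, averaged 5.13 against 4.26 and rose by 0.87, and KRT18 rose by 0.26. Of the 10 colon epithelial markers only these 2 were called higher (20%, beside 10.9% of all genes), and 0 were lower. KRT8, KRT19, CDX1 and CDH1 differed by 0.15, 0.12, 0.12 and -0.01 and did not pass. Summed linear intensities over 7 leukocyte markers were 100 to 112 against 91.3 to 96.8, over 8 fibroblast and endothelial markers 162 to 173 against 150 to 157, and over 8 adipocyte and hepatocyte markers 85.6 to 91.5 against 82.9 to 87.7. Each of these 3 lists had 1 gene called higher (ITGAM, DCN and ADIPOQ; 14.3%, 12.5% and 12.5%, beside 10.9% of all genes) and 0 lower. Below the median probe set lay 4 of the 7 leukocyte markers, among them the leukocyte antigen PTPRC (1.62 against 1.48), and 5 of the 8 genes in each of the other lists. The brightest marker of each list was CD3E (4.92 against 4.74), COL1A1 (6.48 against 6.32) and PLIN4 (4.62 against 4.56), and the part of other cells in the results was not tested.

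Across the pathway, and at the brightest probe set of each gene, the CPEB3-labelled arrays had modestly higher levels of 7 of 10 fatty acid genes and mixed levels of sterol genes. With the mean of a gene's probe sets 3 of the 10 fatty acid genes passed. SREBF1 was lower, a call that spike-in centring ended (-0.13; limma adjusted p = 0.272). Of the 31 measured genes, 13 rose, 4 fell and 14 did not pass limma's test. Each adjusted p of a gene is Benjamini-Hochberg adjusted over all genes, with a threshold of 0.05. Adjusted p of probe sets besides the brightest, and counts of probe sets past the threshold, come from a separate fit over all 41091 single-gene probe sets. The members' shares were 41.9% higher and 12.9% lower, against 10.9% and 12.5% of all genes (23.3% in either direction), so the share of lower members lay near the background. These shares were not tested, since the list was chosen with earlier results of these data known. All 31 members lay above the median probe set in brightness, and among the 12929 genes that did, 14.5% were called higher and 17.7% lower. The members' median difference was 0.15 on the log2 scale, against 0.02 for all genes. No member reached 2-fold at its brightest probe set, and ELOVL6 passed it at 1 of its other probe sets (1.06 on the log2 scale). In bulk RNA of this kind, fewer expressing cells and less RNA per cell cannot be told apart.

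**Figure D1:**
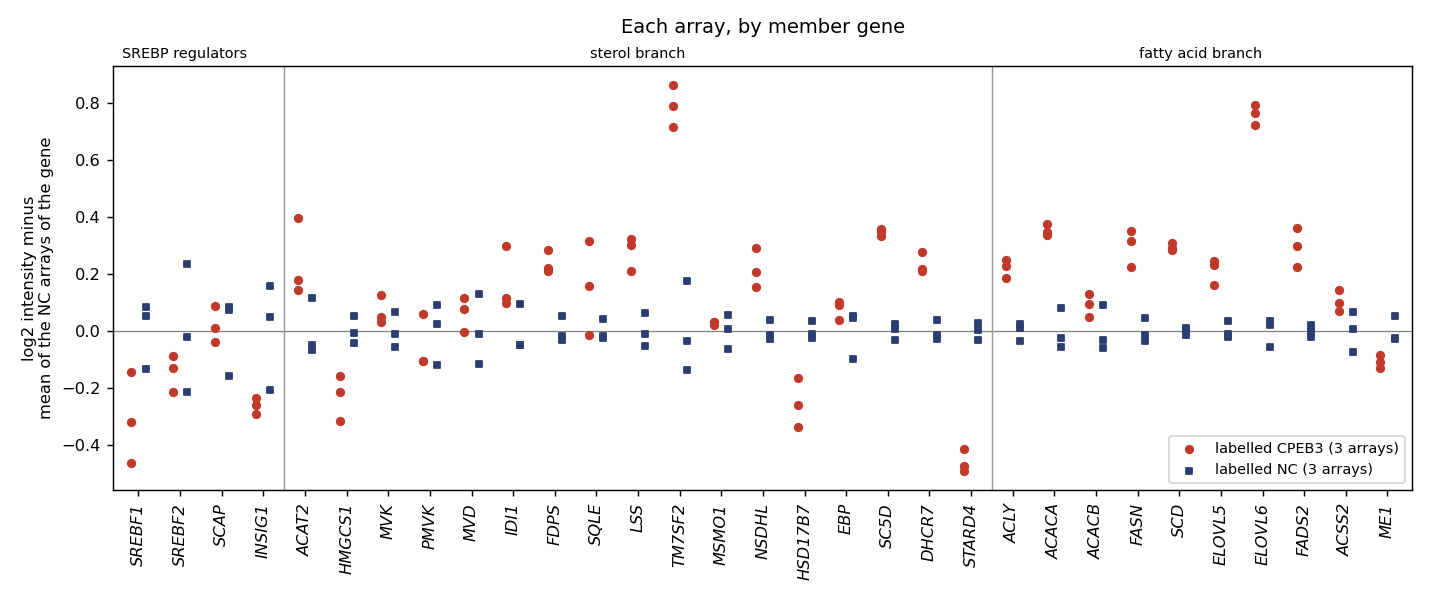
Log2 intensity of each array, given as its distance from the gene's mean over the NC arrays, for the 31 measured genes in pathway order; circles are the 3 CPEB3-labelled arrays and squares the 3 labelled NC. TM7SF2 and ELOVL6 stand highest above the NC arrays and STARD4 lowest below them.

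Of the 4 regulators 1 fell and the others did not pass, with a median difference of -0.20. That is 25% lower, beside 12.5% of all genes and 17.7% of those above the median probe set. SREBF1, which encodes SREBP1, had log2 intensities of 5.92, 6.06 and 6.24 in the CPEB3-labelled arrays, against 6.25, 6.43 and 6.47 in the NC-labelled arrays. The groups did not overlap, but the highest CPEB3 array lay within 0.01 of the lowest NC array. SREBF1 fell by 0.31 (SE 0.09; limma adjusted p = 0.0411), and this call was lost under 9 of 19 alternatives. Among these were leaving out CPEB3 replicate 1 (-0.23) or 2 (-0.30) or NC replicate 2 (-0.28) or 3 (-0.27), and the mean of both probe sets (-0.10). Its dimmer probe set differed by 0.10 the other way (limma adjusted p = 0.468).

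INSIG1, the sterol-regulated retention protein and itself an SREBP target, had 6.47, 6.44 and 6.49 in the CPEB3-labelled arrays, against 6.89, 6.52 and 6.78 in the NC-labelled arrays. All 3 CPEB3 values lay below all 3 NC values, with NC replicate 2 the closest. The difference of -0.26 (95% interval -0.47 to -0.06) did not pass (limma adjusted p = 0.0666), although its 3 probe sets all ran the same way (-0.26, -0.17 and -0.14). It passed under 6 of 19 alternatives, with -0.37 without NC replicate 2 (limma adjusted p = 0.00839). It was -0.18 without NC replicate 1 (limma adjusted p = 0.171) and -0.08 with spike-in centring (limma adjusted p = 0.484). SREBF2, which encodes SREBP2, differed by -0.14 (95% interval -0.38 to 0.09) at its brightest probe set and by 0.08 and 0.14 at the others. SCAP, the escort of both SREBPs, differed by 0.02 (95% interval -0.16 to 0.20).

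In the sterol branch 6 of 17 measured genes rose (35.3%), 3 fell (17.6%) and 8 did not pass, with a median difference of 0.15. Over all genes 10.9% were higher and 12.5% lower, or 14.5% and 17.7% of those above the median probe set, so the share of falls lay at the background. From ACAT2 to IDI1, the steps up to isoprenoid units, HMGCS1 alone passed. ACAT2, the cytosolic thiolase that joins acetyl-CoA, averaged 7.06 ± 0.14 in the CPEB3-labelled arrays and 6.82 ± 0.10 in the NC-labelled arrays (SD, n = 3), a difference of 0.24 that did not pass (limma adjusted p = 0.0701). It passed under 5 of its alternatives, 0.42 with spike-in centring being the highest value. HMGCS1, the HMG-CoA synthase of the cytosol, had 7.44, 7.38 and 7.28 against 7.59, 7.65 and 7.55, with no overlap. It fell by 0.23 (SE 0.06; limma adjusted p = 0.0296), which 8 of 19 alternatives did not keep. These included leaving out CPEB3 replicate 2 (-0.24) or 3 (-0.19) or NC replicate 1 (-0.23) or 2 (-0.20).

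The next enzymes did not pass. The mevalonate kinase MVK differed by 0.07, the phosphomevalonate kinase PMVK by -0.05, the decarboxylase MVD by 0.06 and the isomerase IDI1 by 0.17 (95% interval 0.00 to 0.34). IDI1 passed under 3 alternatives, among them repeated quantile normalization (0.28; limma adjusted p = 0.0108), and MVK with spike-in centring (0.25; limma adjusted p = 0.031). Another IDI1 probe set, nearly as bright, differed by 0.23 (limma adjusted p = 0.0589), and the dimmer ones by 0.14 and -0.14. The repeated normalization picked the brightest probe set anew, and which one it used was not recorded. Early and late steps were not set against each other in a test. FDPS, which makes farnesyl diphosphate, had 8.60, 8.52 and 8.53 in the CPEB3-labelled arrays, against 8.28, 8.36 and 8.29 in the NC-labelled arrays. The groups lay apart, and FDPS rose by 0.24 (SE 0.06; limma adjusted p = 0.0163). The call was lost without CPEB3 replicate 1 (0.22) or NC replicate 3 (0.23). SQLE, the squalene epoxidase, ranged more widely in the CPEB3 arrays, at 7.47, 7.32 and 7.14, against 7.14, 7.20 and 7.13 in the NC arrays. These overlapped, and the difference of 0.15 did not pass (limma adjusted p = 0.234).

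Past squalene, most of the called sterol genes were higher. LSS, the cyclase that forms lanosterol, had 7.21, 7.23 and 7.12 in the CPEB3-labelled arrays, against 6.97, 6.90 and 6.86 in the NC-labelled arrays. It rose by 0.28 (SE 0.06; limma adjusted p = 0.0111), a call lost when its 3 probe sets were averaged (0.19) and with its most variable probe set (0.21). TM7SF2, a sterol reductase that acts after the lanosterol demethylase, had 6.11, 6.04 and 6.19 against 5.19, 5.50 and 5.29. Every CPEB3 array exceeded every NC array. The difference was 0.79 (SE 0.09), or 1.73-fold (limma adjusted p = 0.000238). It rests on 1 probe set, which can match several transcripts. Among the brightest probe sets of the members only ELOVL6 came near TM7SF2, at 0.76 (SE 0.06), and their intervals overlap.

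The demethylation complex that follows showed no common direction. MSMO1, the sterol methyl oxidase, differed by 0.03 (95% interval -0.10 to 0.16). NSDHL, the dehydrogenase of the complex, rose by 0.22 (limma adjusted p = 0.0298), with 0.22 at both of its probe sets. That call was lost with the replicate number as a block (limma adjusted p = 0.0559) and on leaving out any array but CPEB3 replicate 2 (0.18 to 0.24). HSD17B7, the ketoreductase, had 7.88, 7.79 and 7.71 in the CPEB3-labelled arrays, against 8.02, 8.04 and 8.08 in the NC-labelled arrays, and fell by 0.25 (limma adjusted p = 0.0189). The fall did not pass without CPEB3 replicate 2 (-0.25) or 3 (-0.21) or NC replicate 3 (-0.24). Its probe set can match several transcripts and the gene has a close pseudogene, HSD17B7P2, so the source of this signal is uncertain.

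The last steps ran upward where they were called. EBP, the sterol isomerase, differed by 0.08 and did not pass, with all 4 probe sets between 0.00 and 0.08. SC5D, the desaturase that makes the precursor of vitamin D and cholesterol, had 7.94, 7.95 and 7.96 in the CPEB3-labelled arrays, against 7.57, 7.63 and 7.61 in the NC-labelled arrays. Both groups were tight, and SC5D rose by 0.35 (SE 0.05; limma adjusted p = 0.00182), although not with the mean of both probe sets (0.13), the other of which is dim. DHCR7, the final reductase of that route, had 6.63, 6.62 and 6.69 against 6.40, 6.38 and 6.45 and rose by 0.23 (limma adjusted p = 0.0161), with 0.21 at its other probe set. Without CPEB3 replicate 3 (0.21) or NC replicate 2 (0.22) it did not pass.

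STARD4, a cytosolic sterol carrier induced by SREBP2, went the other way. It had 6.78, 6.76 and 6.84 in the CPEB3-labelled arrays, against 7.28, 7.26 and 7.23 in the NC-labelled arrays. The groups lay clearly apart, and STARD4 fell by 0.46 (SE 0.06), or 1.37-fold (limma adjusted p = 0.00048). It was the 1 falling member whose call held with spike-in centring, at -0.28 (limma adjusted p = 0.0166).

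**Figure D2:**
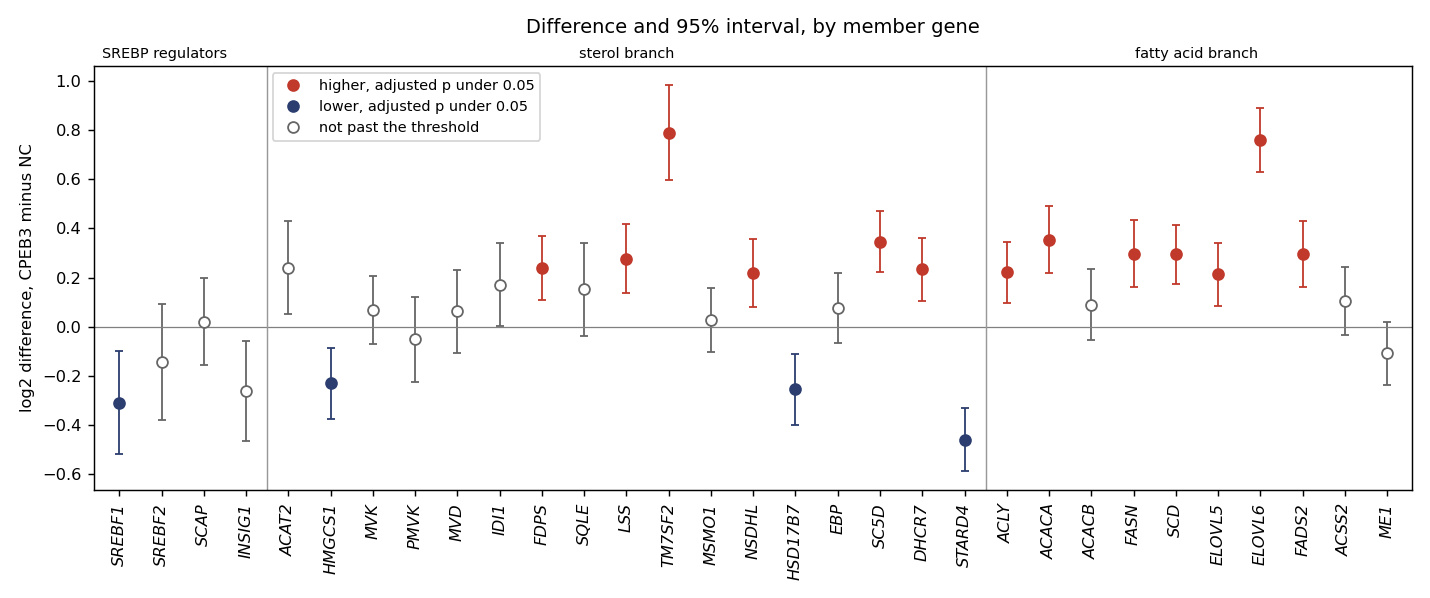
Log2 difference (CPEB3 minus NC) with its 95% interval for each measured gene, in pathway order; filled symbols passed limma's test. In the fatty acid branch 7 of 10 genes are filled and above 0, and in the sterol branch 6 are above and 3 below.

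In the fatty acid branch 7 of 10 measured genes rose (70.0%), 0 fell and 3 did not pass, with a median difference of 0.26, beside 10.9% higher and 12.5% lower among all genes. The mean of a gene's probe sets left 3 of 10 higher, and leaving out probe sets that can match several transcripts left 3 of the 6 genes that still had one. No branch member had an unadjusted p under 0.05 beyond those 7. ACLY, which splits citrate into cytosolic acetyl-CoA, had 10.10, 10.14 and 10.16 in the CPEB3-labelled arrays, against 9.88, 9.92 and 9.93 in the NC-labelled arrays, and rose by 0.22 (limma adjusted p = 0.0193). That call was lost without CPEB3 replicate 2 (0.22) or 3 (0.21) or NC replicate 2 (0.23), and with the mean of its probe sets (0.14). ACSS2, which makes acetyl-CoA from acetate, did not pass (0.10), nor did ME1, the malic enzyme that supplies NADPH (-0.11). ME1 had the branch's one negative difference at the brightest probe set, and was at 0.07 with spike-in centring.

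Of the genes of the committed steps, ACACA and FASN passed and ACACB did not. ACACA, the cytosolic acetyl-CoA carboxylase, had 8.361, 8.397 and 8.371 in the CPEB3-labelled arrays, against 7.999, 7.966 and 8.105 in the NC-labelled arrays, and rose by 0.35 (SE 0.06; limma adjusted p = 0.0029). Its other probe set differed by -0.15 (limma adjusted p = 0.184), and their mean by 0.10, which did not pass. ACACB, the mitochondrial carboxylase that restrains fatty acid oxidation, differed by 0.09 (limma adjusted p = 0.353), and 5 of its 7 probe sets had negative differences. FASN, the fatty acid synthase, had 7.97, 8.06 and 8.09 against 7.71, 7.73 and 7.79, with no overlap, and rose by 0.30 (SE 0.06; limma adjusted p = 0.00724). Its dimmer probe set differed by 0.02 (limma adjusted p = 0.875), and the mean of both by 0.16 (limma adjusted p = 0.0469).

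Of the elongases and desaturases listed in this branch, the 4 that were measured passed as higher. ELOVL6, which lengthens saturated fatty acids such as palmitate, had 9.21, 9.17 and 9.24 in the CPEB3-labelled arrays, against 8.48, 8.47 and 8.39 in the NC-labelled arrays. It rose by 0.76 (SE 0.06), or 1.69-fold (limma adjusted p = 2.71e-05), and its 3 probe sets gave 0.76, 0.83 and 1.06. No alternative ended this call. ELOVL5, the elongase of polyunsaturated fatty acids, had 8.925, 8.996 and 9.010 against 8.753, 8.797 and 8.741 and rose by 0.21 (limma adjusted p = 0.0249). It did not pass without CPEB3 replicate 2 (0.20) or 3 (0.20) or NC replicate 2 (0.23) or 3 (0.20), or with the mean of its probe sets. With its most variable probe set it differed by -0.17.

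SCD, the desaturase that makes oleate and palmitoleate, had 10.37, 10.40 and 10.38 in the CPEB3-labelled arrays, against 10.10, 10.10 and 10.08 in the NC-labelled arrays. Spread was small in both groups, and SCD rose by 0.29 (SE 0.05; limma adjusted p = 0.004), with 3 of its 4 probe sets past the threshold. FADS2, the desaturase that begins the route to long polyunsaturated fatty acids, had 5.59, 5.65 and 5.52 against 5.29, 5.27 and 5.31 and rose by 0.30 (SE 0.06; limma adjusted p = 0.00699), or 0.22 without passing when its probe sets were averaged.

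The 31 members had 75 single-gene probe sets, and 21 members had more than 1. No member had probe sets past the threshold in both directions. In ELOVL6, SCD and NSDHL at least 2 probe sets passed and ran the same way. The groups did not overlap in 16 members with higher and 6 with lower values in the CPEB3-labelled arrays, where 19.9% and 19.1% of all genes did so (39.1% in either direction).

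**Figure D3:**
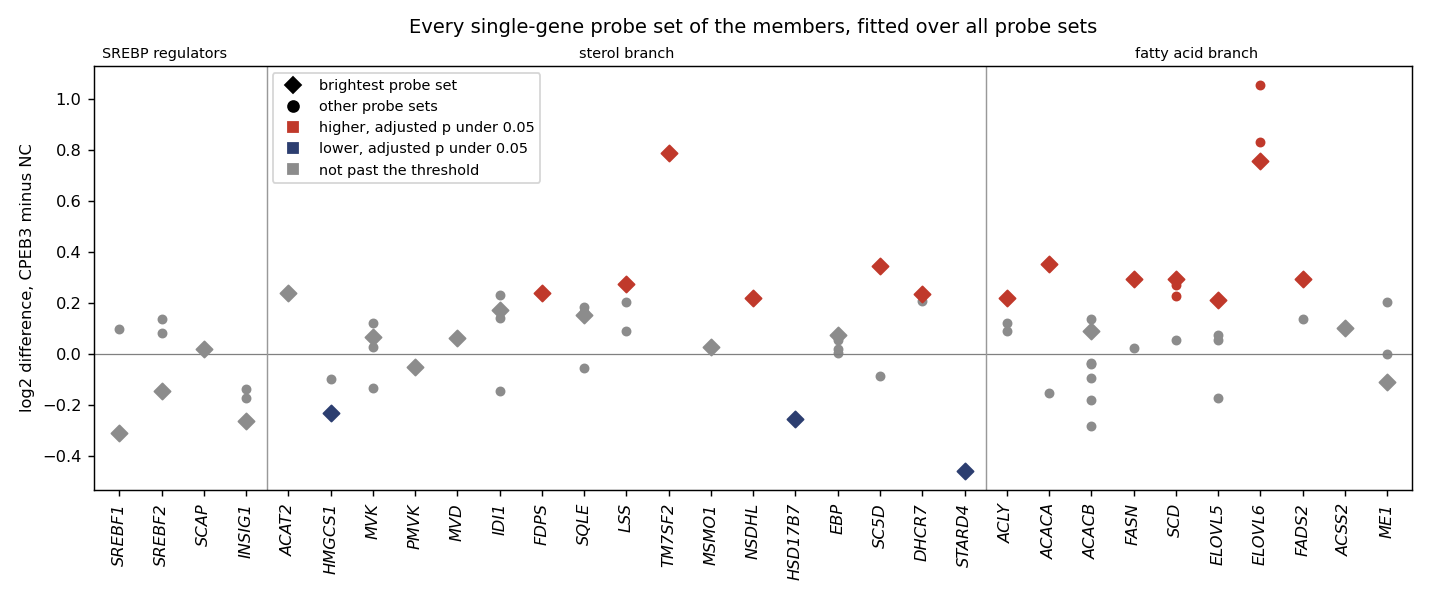
Log2 difference (CPEB3 minus NC) of every single-gene probe set of the members, in a fit over all 41091 such probe sets; diamonds are the brightest of each gene, and colours mark those past the threshold. All 3 probe sets of ELOVL6 lie between 0.76 and 1.06, while those of ACACB and IDI1 scatter on both sides of 0.

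The counts depended on the scaling and on the choice of probe set. With spike-in centring 20 members were higher and 1 lower, against 7766 and 1038 of all genes, and the fatty acid and sterol medians became 0.44 and 0.33 beside 0.20 for all genes. SREBF1 was then -0.13, HMGCS1 -0.05 and HSD17B7 -0.07, none past the threshold. With the mean of a gene's probe sets 7 members were higher and 3 lower, and the fatty acid median was 0.12.

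**Figure D4:**
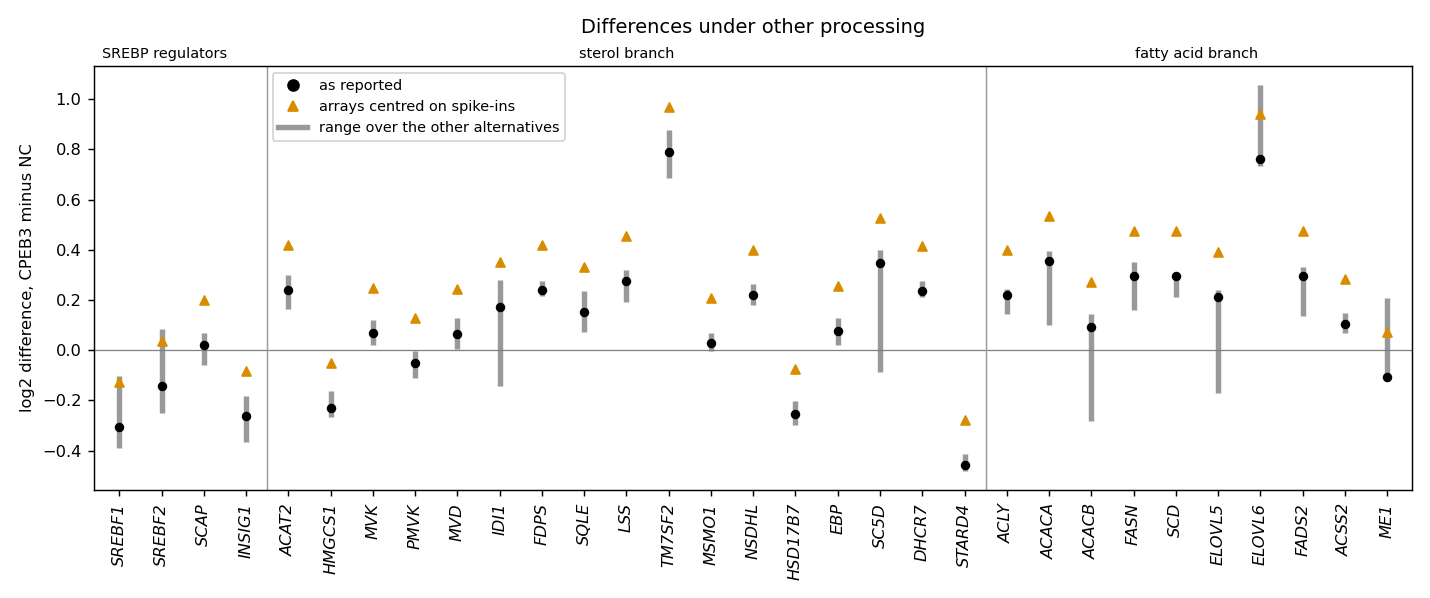
Log2 difference (CPEB3 minus NC) of each member as reported (circles), with arrays centred on spike-ins (triangles) and the range over the other alternatives (bars). TM7SF2, ELOVL6 and STARD4 keep their sign throughout, and of the called members SC5D and ELOVL5 cross 0, at another probe set.

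Neighbouring lipid genes were counted in the same fit, from lists drawn up for this pathway with earlier results of these data known. Other genes of SREBP processing and sterol sensing rose in 5 of 11 and fell in 1 (45.5% and 9.09%, beside 10.9% and 12.5% of all genes), with a median of 0.15. The gene that fell was INSIG2, the second INSIG retention protein, which had 6.44, 6.38 and 6.40 in the CPEB3-labelled arrays, against 7.16, 7.20 and 7.27 in the NC-labelled arrays, a fall of 0.81 (SE 0.06; limma adjusted p = 1.98e-05). MBTPS2, the protease that releases SREBPs from the membrane, rose by 0.39 and UBE2G2, a ubiquitin-conjugating enzyme of endoplasmic reticulum degradation, by 0.36. The MBTPS2 call was lost when its probe sets were averaged (0.14) and the UBE2G2 call with its most variable probe set (0.32).

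Other fatty acid enzymes rose in 5 of 20 (25%, beside 10.9% of all genes) and fell in 1 (5%, beside 12.5%), with a median of 0.09. SCD5, a second stearoyl-CoA desaturase, had 7.53, 7.47 and 7.55 in the CPEB3-labelled arrays, against 6.70, 6.68 and 6.73 in the NC-labelled arrays, and rose by 0.81 (SE 0.06; limma adjusted p = 1.53e-05). ACSL4, which activates arachidonate, rose by 0.37 with overlapping groups, and the elongation ketoreductase HSD17B12 rose by 0.35. The ACSL4 call was lost without CPEB3 replicate 1 (0.34) or 3 (0.32) or NC replicate 2 (0.29) or 3 (0.32), and that of HSD17B12 when its probe sets were averaged (0.17). The elongases ELOVL2, ELOVL3, ELOVL4 and ELOVL7, the desaturase FADS3 and the elongation enzymes HACD2, HACD3 and TECR, named here after their values were seen, did not pass, with differences from -0.13 (ELOVL3) to 0.21 (ELOVL4).

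Of 13 other sterol and isoprenoid enzymes 6 fell, 1 rose and 6 did not pass (46.2% lower and 7.69% higher, beside 12.5% and 10.9% of all genes), and 5 of the 13 differences were positive (median -0.06). LBR, the lamin B receptor and the other sterol reductase of the step that TM7SF2 serves, had 8.81, 8.83 and 8.90 in the CPEB3-labelled arrays, against 9.31, 9.19 and 9.09 in the NC-labelled arrays. It fell by 0.35 (SE 0.07; limma adjusted p = 0.00634), so these 2 reductases moved in opposite directions, LBR losing its call with spike-in centring (-0.17). COQ2, of ubiquinone synthesis, fell by 0.48 at its brightest probe set and was 0.45 higher at the other. FNTB, the farnesyltransferase beta subunit, fell by 0.39 (-0.21 and not past the threshold with spike-in centring).

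Sterol uptake and trafficking genes rose in 1 of 14 (7.14%, beside 10.9% of all genes) and fell in 3 (21.4%, beside 12.5%, or 17.7% of genes above the median probe set), with a median of -0.01. NPC1, which exports cholesterol from lysosomes, had 7.217, 7.186 and 7.256 in the CPEB3-labelled arrays, against 7.760, 7.996 and 7.915 in the NC-labelled arrays, and fell by 0.67 (SE 0.07; limma adjusted p = 0.000216), a call lost with the mean of its 4 probe sets (-0.16). GRAMD1B, a sterol carrier at membrane contact sites, fell by 0.40 and OSBPL2, an oxysterol-binding protein relative, by 0.33. The OSBPL2 call was lost with spike-in centring (-0.15) and without CPEB3 replicate 2 (-0.27) or NC replicate 2 (-0.29). The gene that rose was NPC2 (0.30), the soluble partner of NPC1, which was named after its value was seen.

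Among 11 LXR, efflux and oxysterol genes, 0 rose (0%, beside 10.9% of all genes) and 1 fell (9.09%, beside 12.5%), with a list median of 0.11. The gene that fell was LPCAT3, a phospholipid acyltransferase (-0.23, or -0.06 when its probe sets were averaged). The LPCAT3 call was also lost without CPEB3 replicate 1 (-0.20) or 3 (-0.22) or NC replicate 2 (-0.21) or 3 (-0.23). At an unadjusted p under 0.05 there were 2 of these 11 genes, beside 6976 of all 19775 genes, and 6 of the 11 lay below the median probe set. Of 13 esterification and glycerolipid genes, 2 rose (15.4%, beside 10.9% of all genes) and 3 fell (23.1%, beside 12.5%), with a median of 0.07. GPAM, the acyltransferase that begins triglyceride synthesis, had 6.98, 6.88 and 7.06 in the CPEB3-labelled arrays, against 6.29, 6.33 and 6.39 in the NC-labelled arrays, and rose by 0.64 (limma adjusted p = 0.000184). The lipid droplet coat protein PLIN2 fell by 0.69 and the phosphatidate phosphatase LPIN1 by 0.57 (limma adjusted p = 0.000222 and 0.000299).

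**Figure D5:**
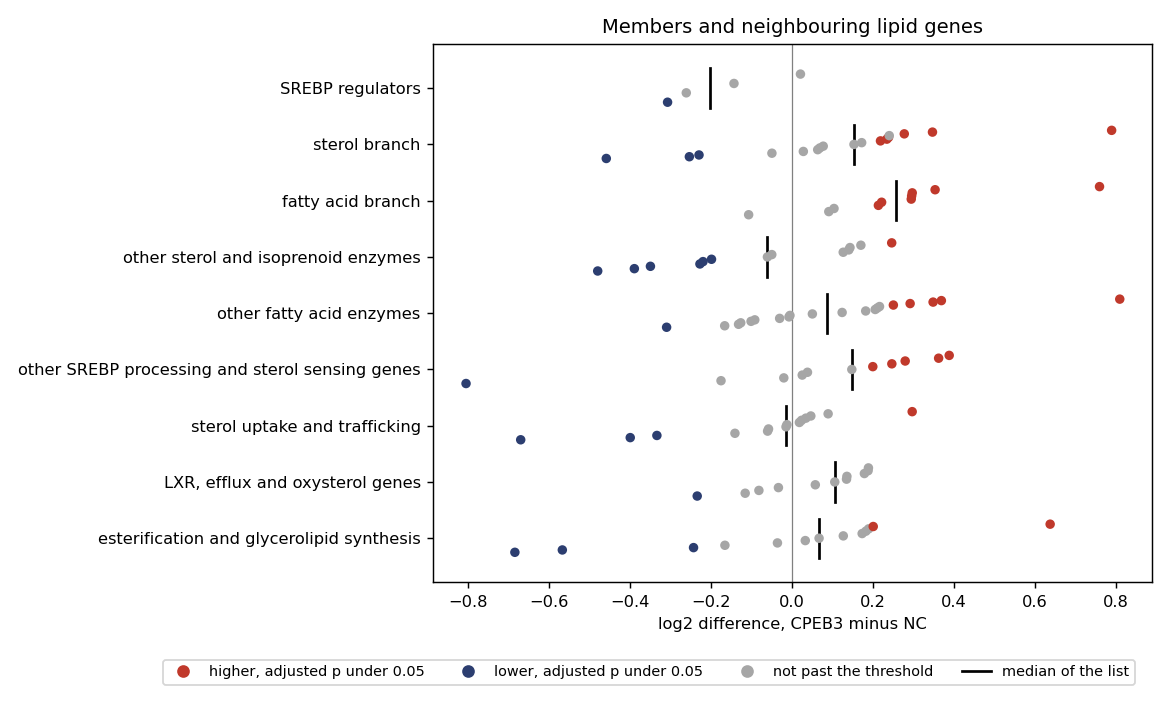
Log2 difference (CPEB3 minus NC) of the measured genes of each list, 1 point per gene, with the list's median as a bar; red points rose and blue points fell by limma's test. The fatty acid branch has no blue point, and INSIG2, NPC1 and PLIN2 are the lowest points of their lists.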

How the data were processed

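RNA of 6 SW480 samples was hybridised to HG-U133 Plus 2.0 arrays. The authors deposited a linear-scale normalized intensity for every probe set in each sample, made with RMA per the submitters' processing notes; neither its version nor the step from log2 to linear values is stated. RMA makes array distributions alike, so total RNA per cell is not measured. Groups and replicate numbers come from the titles. Log2 of the deposited intensity went into limma 3.58.1 under R 4.3.3 (lmFit and eBayes, two-sided, with no term besides the group), Benjamini-Hochberg adjusted over 19775 genes at a threshold of 0.05. Of 54675 probe sets, 41091 had 1 gene, 1801 several and 11721 none, and 62 are controls. All 31 measured members matched RefSeq by Entrez identifier. Precision is limited by the number of arrays, and detection was not called.

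Named were all measured members, CPEB3 and, of each neighbouring list, up to 3 called genes with the largest change. The members and lists were chosen with earlier results of these data known. The fit was also run on simulated data, with genes drawn independently and most of them unchanged, which does not cover the shift in scaling. The alternatives are those of the closing section. The neighbouring lists do not hold every gene of lipid metabolism. Figures were drawn with matplotlib 3.10.9.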

Additional observations from a re-analysis of the deposited data

How the results depend on the processing

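There were 19 alternatives. Of 579 values of single members under them, 497 kept their direction and side of the threshold, 46 lost the call, 19 gained it and 17 changed sign, 2 of these in genes past the threshold as reported and 15 in genes that were not. The count of all genes called was 8804 with spike-in centring, against 4616. Members called higher numbered 13, against 7 with the mean of all probe sets, 6 without multi-transcript probe sets (names with _s, _x or _a; 21 members left) and 20 with spike-in centring; leaving out each array in turn gave 9 to 12. Members called lower numbered 4, against 2 with the most variable probe set, 2 with repeated quantile normalization and 1 with spike-in centring; leaving out each array gave 1 to 3, with 1 without CPEB3 replicate 2, and 2 without CPEB3 replicate 3 or NC replicate 3. The sterol median of 0.15 became 0.10 with the mean of probe sets, 0.028 without multi-transcript probe sets, 0.20 with repeated quantile normalization and 0.33 with spike-in centring, and 0.10 to 0.18 on leaving out each array (0.10 without CPEB3 replicate 1). The fatty acid median of 0.26 became 0.12, 0.18 and 0.44 with the mean of probe sets, without those probe sets and with spike-in centring. The values that changed sign were SC5D at -0.086 without multi-transcript probe sets, ELOVL5 at -0.17 with the most variable probe set, COQ2 at 0.45 with that choice, and CPEB3 at -0.50 with the mean of probe sets and -1.44 with the most variable. Among members not past the threshold, and not past it after the change, they were SREBF2 (0.026, 0.085 and 0.036) and ME1 (0.033, 2.32e-05 and 0.072) with the mean of probe sets, without multi-transcript probe sets and with spike-in centring, ME1 at 0.21 and ACACB at -0.28 with the most variable probe set, ACACB at -0.057 with the mean, IDI1 at -0.14 without multi-transcript probe sets, PMVK at 0.13 with spike-in centring, SCAP at -0.018 with array weights, -0.013 without CPEB3 replicate 3 and -0.058 without NC replicate 1 (-0.058 to 0.063 on leaving out each array), and MSMO1 at -0.0043 without NC replicate 3 (-0.0043 to 0.056). The fatty acid genes called higher numbered 7, against 3 with the mean of probe sets, 3 without multi-transcript probe sets and 9 with spike-in centring. The causes were not tested, beyond the fewer or other probe sets that these settings use.

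Replicate numbers did not pair the arrays: deviations from the group means correlated with r = 0.00, -0.02 and 0.12 for numbers 1, 2 and 3 across genes, and 2 of 6 arrays correlated best with their own number. With the replicate block 12 members were higher and 4 lower, and NSDHL lost its call. Differences of members are mostly under 0.4 on the log2 scale, so a shift of 0.18 in scaling decides many calls, and dim second probe sets limit the checks by probe set.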
